A study of Homo sapiens with 66 samples.

Results

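The genes described here encode the kinases and adaptors of the DNA damage checkpoint: ATM, ATR, ATRIP, CHEK1, CHEK2, WEE1, RAD9A, CLSPN and TOPBP1. These 9 members of 57992 gene identifiers were chosen by name, and their RNA was followed in 11 acute myeloid leukemia (AML) cell lines. Cells were left untreated or received etoposide, a topoisomerase II poison that leaves DNA double-strand breaks, for 24 hours. Each line (F36P, HL60, KASUMI1, MOLM13, MONOMAC6, MV411, NB4, NOMO1, OCIAML2, OCIAML3 and THP1) has 3 libraries per condition, 66 in all. The untreated cells received medium alone, and the treated cells received etoposide at the IC50 of their own line, the concentration that lowers viability to the midpoint of its range. The dose thus differs between lines, and a difference in response between lines cannot be told apart from a difference in dose. Each line is 1 established culture, and cells of 3 wells were pooled for each RNA sample. The study discarded the etoposide libraries of OCIAML2 after quality control of the raw reads, so that line is given apart and counts over lines cover the other 10.

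In this pathway ATM is recruited to double-strand breaks and phosphorylates CHEK2, whereas ATR is brought by its partner ATRIP to single-stranded DNA at resected breaks and stalled forks. The ring-shaped clamp that contains RAD9A recruits TOPBP1, which activates ATR, and CLSPN (claspin) is the adaptor through which ATR phosphorylates CHEK1. CHEK1 and CHEK2 restrain the CDC25 phosphatases, and WEE1 adds the inhibitory phosphate to the cyclin-dependent kinases, so that the cell cycle stops before mitosis. The kinases are regulated mainly by phosphorylation, which was not measured here, and the values below are RNA levels only.

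Reads on genes ranged from 17997404 to 24101670 per library (median 20241014). No 2 libraries of a group agreed within sampling noise (lowest chi-square per degree of freedom 2.05 over 66 pairs). All 7 leukocyte markers examined reached 1 CPM (counts scaled to the size of the library) in the untreated cells of 10 lines, and 5 did in F36P, where MPO and CEBPA did not. F36P alone had all 5 erythroid markers at 1 CPM or more, with a summed level of 6294 CPM against at most 14.4 CPM elsewhere. Of 8 markers of T, B, stromal, epithelial and endothelial cells, between 0 and 4 reached 1 CPM in a line, with summed levels from 1.07 CPM (HL60) to 298.7 CPM (MONOMAC6). PECAM1 gave 289.6 CPM of the MONOMAC6 sum and reached 1 CPM in 10 lines. EPCAM was highest in KASUMI1, at 81.9 CPM. Whether other cell types were present was not tested. CDKN1A, the p53-induced inhibitor of cyclin-dependent kinases, rose in 10 of 10 lines, by a log2 fold change of 1.86 (MV411) to 5.46 (OCIAML3). MDM2, the p53-induced ubiquitin ligase for p53, rose in 5 lines (up to 2.59 in OCIAML3), fell in NB4 (-0.33 ± 0.09) and did not pass the test in 4. Genes passed the test at an adjusted p below 0.05 in the quasi-likelihood test of edgeR, and rose and fell are used for these alone.

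ATRIP could not be followed. It had between 0 and 18 reads per library and 326 reads in the 66 libraries together, 4 libraries were at 0, and it passed the filter on low counts in no line. Every other member had at least 314 reads in every library. ATRIP (ENSG00000164053.18, chr3:48446710-48467645 of GRCh38, plus strand) shares 1448 exonic bases, 26.7% of its own, with TREX1 on the same strand, and TREX1 is listed at 0 reads in all 66 libraries. STAR leaves reads that touch more than 1 gene out of its gene counts. The part of this overlap in the low count was not tested, and the values of ATRIP are not read as its expression. The counts and tests below therefore concern 8 of the 9 members.

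The members differed in their level between untreated lines. In 1 fit of 33 untreated libraries all 8 differed between the 11 lines, as did 99.4% of all genes tested. CHEK2 (ENSG00000183765.20, chr22:28687743-28742422, minus strand), the effector kinase of ATM, spread the most. Its mean level was 110.7 ± 6.32 CPM (SD, n = 3) in F36P, 73.0 ± 2.01 CPM in THP1 and 16.9 ± 0.368 CPM in MONOMAC6, a 6.57-fold range (F = 217, adjusted p = 4.00e-26). Ordered by level, 8 of 10 neighbouring pairs of lines had CHEK2 libraries that did not overlap. The exceptions were HL60 with MOLM13 and MOLM13 with OCIAML3. The share of such pairs over all genes is not given, so 8 of 10 is not read as particular to CHEK2.

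ATM (ENSG00000149311.17, chr11:108223044-108369102, plus strand), the kinase upstream of CHEK2, had its highest mean in MONOMAC6 at 248.8 ± 7.69 CPM and its lowest in F36P at 70.0 ± 26.3 CPM. These are the lines with the lowest and the highest CHEK2, and the 2 genes had a Pearson r of -0.78 over the 11 untreated lines on the log2 CPM scale. That r is a description, since all points share the normalization of 33 libraries. WEE1 (ENSG00000166483.10, chr11:9573670-9593457, plus strand) was also highest in F36P, with 129.4 ± 8.36 CPM, apart from KASUMI1 at 80.0 ± 4.70 CPM and from the lowest line, MOLM13, at 47.8 ± 2.75 CPM. TOPBP1 (ENSG00000163781.12, chr3:133598175-133662380, minus strand) ran from 330.1 ± 39.8 CPM in NOMO1 to 110.6 ± 40.9 CPM in F36P.

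**Figure D1:**
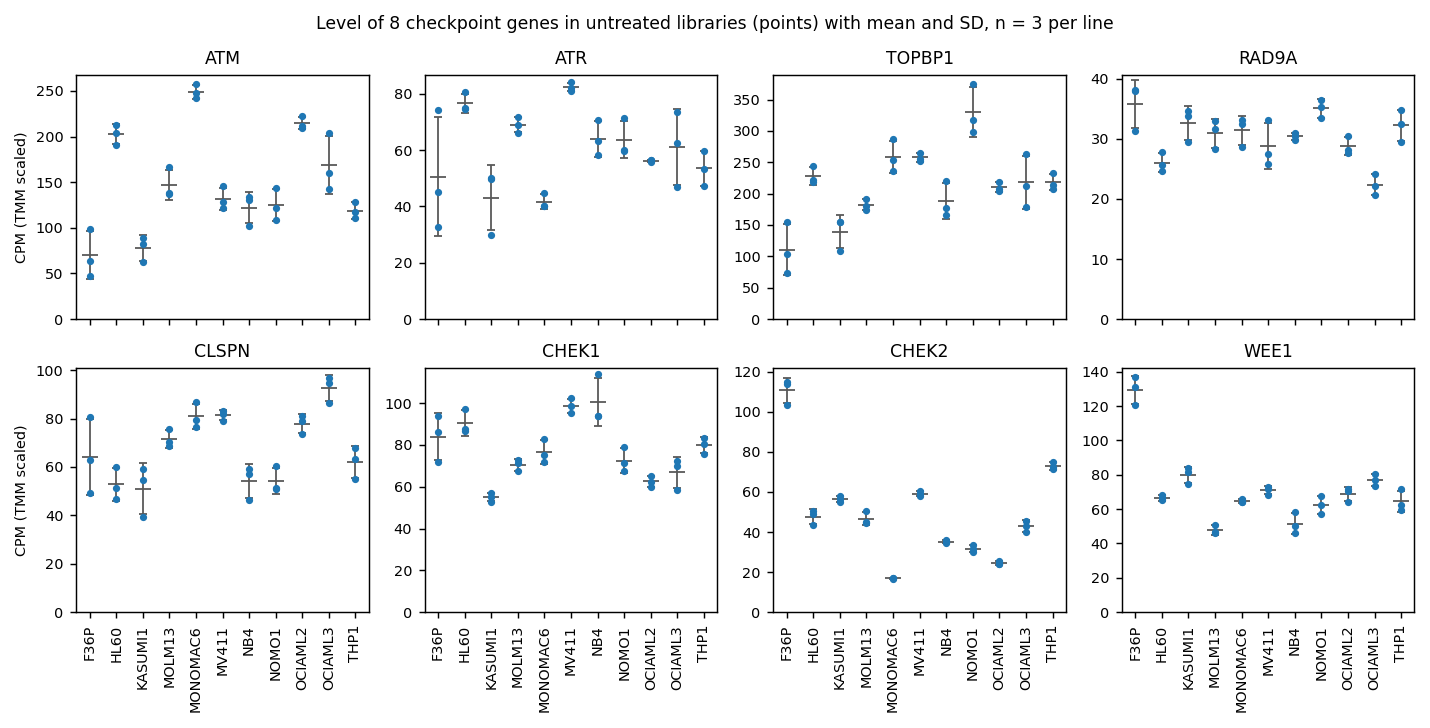
Untreated level of 8 checkpoint genes in 11 lines, in TMM-scaled CPM on axes that start at 0; points are libraries, and the dash and bar are the mean and SD (n = 3). Lines are in alphabetical order. CHEK2 is highest in F36P and lowest in MONOMAC6. Ranked by level, most neighbouring lines are apart for CHEK2, whereas most overlap for the other genes shown.

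The remaining members spanned smaller ranges of mean level: 1.98-fold for ATR (ENSG00000175054.14, chr3:142449007-142578733, minus strand), 1.83-fold for CHEK1, 1.81-fold for CLSPN and 1.60-fold for RAD9A. ATR was highest in MV411 (82.4 ± 1.53 CPM) and HL60 (76.7 ± 3.44 CPM), which did not overlap with the lines next in order, and from MOLM13 downwards each line overlapped with its neighbour. CHEK1 ran from NB4 (100.6 ± 11.6 CPM) to KASUMI1 (55.0 ± 1.997 CPM), and only KASUMI1 stood apart from its neighbour. CLSPN was highest in OCIAML3 (92.6 ± 5.50 CPM), the only line apart from its neighbour, and RAD9A was lowest in OCIAML3 (22.4 ± 1.73 CPM), likewise apart.

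The 3 untreated F36P libraries spread more than those of most lines, and several members moved together among them. ATM had 47.7, 68.5 and 108 CPM in libraries 1, 2 and 3 (scaled within the line), ATR had 33.1, 48.2 and 81.3 CPM, TOPBP1 had 74.2, 111 and 169 CPM and CLSPN had 50, 67.1 and 88.4 CPM. WEE1 had 139, 140 and 132 CPM and CHEK2 had 116, 122 and 113 CPM in the same libraries. ATM, ATR, TOPBP1 and CLSPN were thus lowest in library 1 and highest in library 3, whereas WEE1 and CHEK2 were nearly level. Genes whose main transcript has at least 6000 bases deviated from the group mean by a median of -0.07, 0.00 and 0.08 on the log2 scale in libraries 1, 2 and 3. Those under 2000 bases deviated by 0.04, 0.06 and -0.08, so the longer transcripts were highest and the shorter ones lowest in library 3. Larger deviations of this kind occurred outside F36P. The longer and shorter transcripts deviated by -0.16 and 0.16 in etoposide library 2 of KASUMI1. In etoposide library 2 of THP1 they deviated by -0.14 and 0.14. Several calls given below change without these libraries. The part of transcript length in the spread of the members was not tested in any line.

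Per length of transcript, TOPBP1 was the most abundant member and ATR the least. Over the 11 untreated lines the median level was 29.7 RPKM (CPM divided by the length in kilobases) for TOPBP1 and 2.24 RPKM for ATR, with the union of annotated exons as the length. With the MANE Select transcript, the 1 reference transcript agreed on by the annotation groups, the values were 37.8 RPKM and 7.47 RPKM, a length chosen after the unions had been seen. The order between these ends depended on the length: ATM had 3.36 RPKM by the union and 10.2 RPKM by the reference transcript, CLSPN 6.70 and 7.55 RPKM, and CHEK2 10.4 and 25.3 RPKM. These are levels over lines, not changes.

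After etoposide the members did not move as a group. Of 80 member and line pairs (8 members in 10 lines), 17 rose and 24 fell, and 39 did not pass the test. Over all genes tested in those lines 27.7% of pairs rose and 24.4% fell. The members' shares, 21.2% and 30.0%, lay near these. With library size alone in place of TMM scaling, 23 rose and 17 fell, because that scaling moved the median of all genes up by 0.10 to 0.25 on the log2 scale in F36P, HL60, KASUMI1, MONOMAC6, MV411 and NB4. Changes were small: no pair rose by more than 2-fold in edgeR, at an unadjusted p either, or in DESeq2 (11.1% of all pairs did in edgeR) and 2 fell by more than 2-fold (3.96% of all pairs), both in MOLM13 (where 3.37% of genes did). TOPBP1, CLSPN, CHEK1 and RAD9A each rose in some lines and fell in others. ATM, ATR, CHEK2 and WEE1 passed as higher in no line with all libraries, the filter on low counts and TMM scaling. ATM in KASUMI1 and CHEK2 in MV411 did pass as higher in other settings, given with these genes. For these 4 genes 0 of 40 pairs was higher at an unadjusted p below 0.05 in edgeR, and 0 passed higher in DESeq2.

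**Figure D2:**
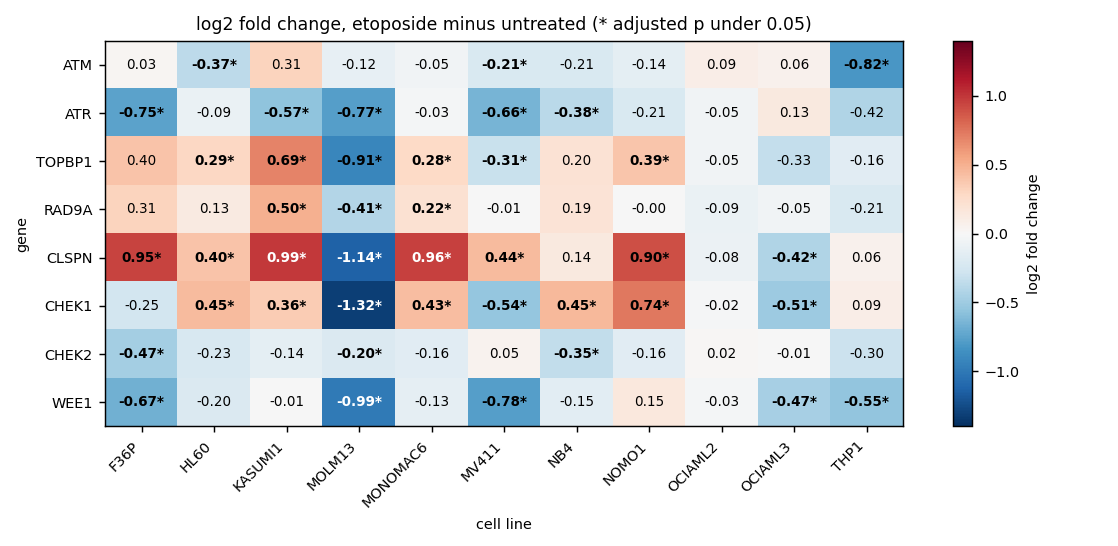
Log2 fold change of etoposide over untreated libraries for 8 checkpoint genes (rows) in 11 lines (columns), with colour from lower (blue) to higher (red) and an asterisk at an adjusted p below 0.05. TOPBP1, CLSPN and CHEK1 hold both red and blue cells with asterisks, MOLM13 is blue from ATR to WEE1, and OCIAML2 has no asterisk.

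CLSPN (ENSG00000092853.13, chr1:35720218-35769978, minus strand), the claspin adaptor, rose in 6 lines and fell in 2, and its 8 calls were matched by CHEK1 alone. In KASUMI1 it had 59.2, 55.0 and 38.9 CPM in the untreated and 117, 75.6 and 112 CPM in the etoposide libraries, without overlap, for a log2 fold change of 0.99 ± 0.19 (SE; adjusted p = 0.00137). In MONOMAC6 it went from 90.2, 79.7 and 82.6 CPM to 170, 156 and 165 CPM (0.96 ± 0.06, adjusted p = 6.9e-08). The rises in F36P (0.95 ± 0.19) and NOMO1 (0.90 ± 0.11) were of like size, and those in MV411 (0.44 ± 0.06) and HL60 (0.40 ± 0.12) were smaller. In MOLM13 it fell from 72.9, 67.7 and 65.9 CPM to 37.4, 28.8 and 27.8 CPM (-1.14 ± 0.11, adjusted p = 1.89e-05). It also fell in OCIAML3 (-0.42 ± 0.12, adjusted p = 0.0246). The HL60 call was lost without untreated library 2 or 3 or etoposide library 3 (0.28 to 0.39, adjusted p = 0.073 to 0.11), and the OCIAML3 call without untreated library 1 (-0.40, adjusted p = 0.087). Since the rises lay close to 2-fold, 1 library decided which exceeded it: F36P reached 1.07 without untreated library 3, KASUMI1 1.03 to 1.16 without untreated library 1 or 2 or etoposide library 2, and MONOMAC6 1.01 without untreated library 1.

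CHEK1 (ENSG00000149554.12, chr11:125625163-125676255, plus strand), the effector kinase of ATR, rose in 5 lines and fell in 3. The largest rise was in NOMO1, from 88.2, 79.5 and 75.5 CPM to 118, 153 and 135 CPM (0.74 ± 0.11, adjusted p = 0.000105). HL60, MONOMAC6 and NB4 had log2 fold changes of 0.45 ± 0.10, 0.43 ± 0.07 and 0.45 ± 0.10, and KASUMI1 had 0.36 ± 0.08. Treated and untreated libraries did not overlap in any of these 5 lines. In MOLM13 the level fell from 70.1, 64.7 and 68.7 CPM to 25.5, 26.9 and 28.9 CPM, a 2.5-fold decrease (-1.32 ± 0.08, adjusted p = 1.37e-06), the largest change of any member. In MV411 it fell from 101, 106 and 110 CPM to 77.1, 68.1 and 73.0 CPM (-0.54 ± 0.06, adjusted p = 1.7e-07). The fall in OCIAML3 (-0.51 ± 0.14, adjusted p = 0.0212) was not called without untreated library 1 (-0.48, adjusted p = 0.075). F36P passed as lower without untreated library 1 (-0.43, adjusted p = 0.012) and THP1 as higher without etoposide library 2 (0.22, adjusted p = 0.037), neither passing with all libraries (-0.25 and 0.09).

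TOPBP1, the activator of ATR, rose in 4 lines and fell in 2. In KASUMI1 it went from 155, 155 and 107 CPM to 232, 191 and 251 CPM (0.69 ± 0.15, adjusted p = 0.00306), and in MOLM13 it fell from 174, 168 and 184 CPM to 110, 74.8 and 94.4 CPM (-0.91 ± 0.12, adjusted p = 0.000135). MV411 also fell (-0.31 ± 0.06) and MONOMAC6 rose (0.28 ± 0.08), the latter with overlapping libraries. Calls in NOMO1 (0.39 ± 0.14, adjusted p = 0.0339) and HL60 (0.29 ± 0.11, adjusted p = 0.0499) rested on single libraries. In NOMO1 the adjusted p was 0.094 to 0.148 without untreated library 2 or 3 or etoposide library 2 or 3. In HL60 it was 0.056 to 0.156 without any 1 library other than etoposide library 2. F36P (0.40 ± 0.25, adjusted p = 0.183) did not pass, but it did without untreated library 3 (0.66, adjusted p = 0.0005). In NB4 libraries with a common replicate number deviated together. TOPBP1 passed there with the replicate as a block (0.21, adjusted p = 0.0047) and not without it (0.20, adjusted p = 0.114). It also passed in NB4 without untreated library 1 (0.32, adjusted p = 0.013).

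**Figure D3:**
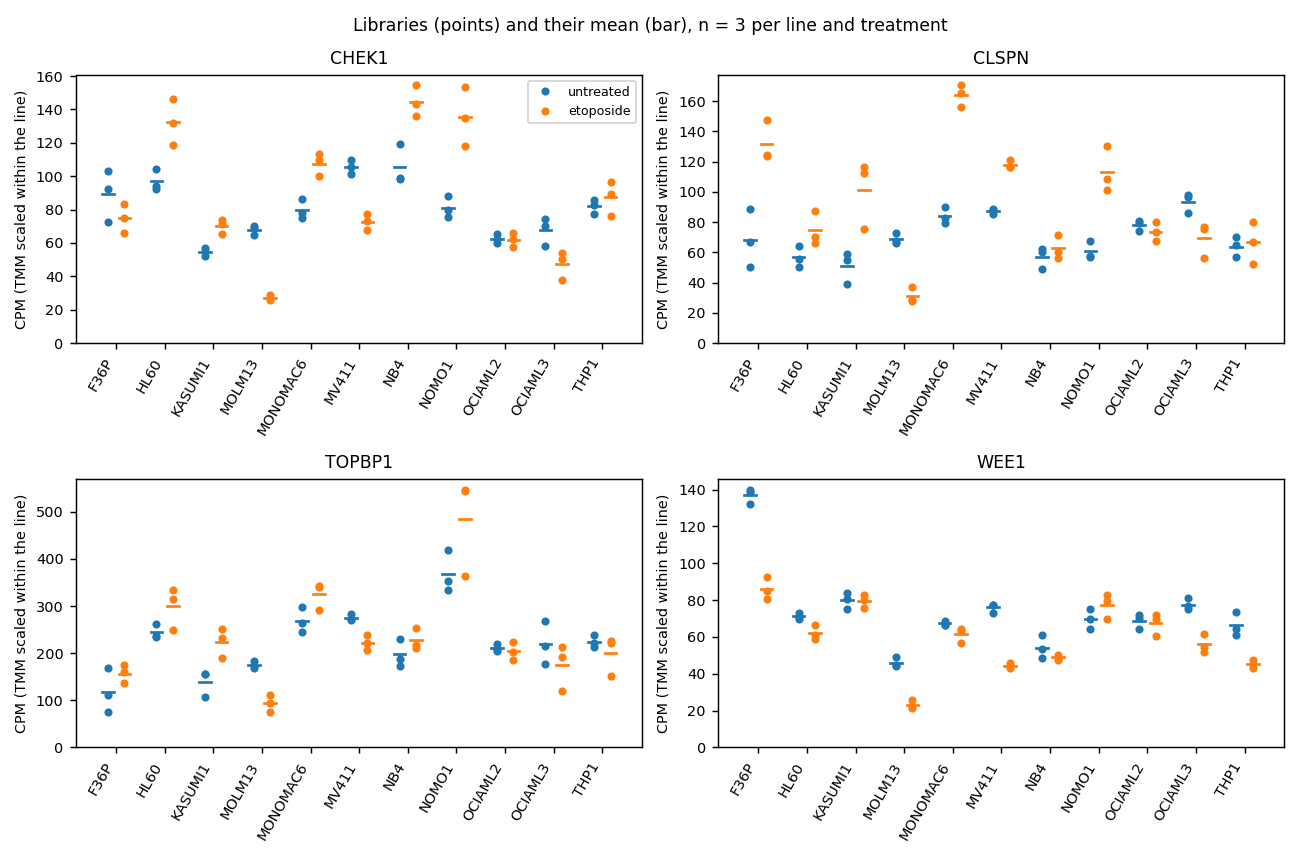
CPM (TMM scaled within each line) of CHEK1, CLSPN, TOPBP1 and WEE1 in each library, untreated in blue and etoposide in orange, with short bars at the mean (n = 3). In MOLM13 the orange points lie below the blue ones in all 4 panels, whereas in NOMO1 the orange points of CHEK1 and CLSPN lie above.

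The promoters of these 3 genes are shown because each rose in HL60, KASUMI1, MONOMAC6 and NOMO1 and fell in MOLM13. In MV411 they moved apart, since CLSPN rose while CHEK1 and TOPBP1 fell. Of 9 members, 8 matched the RefSeq table on GRCh38.p14, with 12 promoters; WEE1 did not match. The 250 bases before each start are printed in lower case 5′ to 3′ on the strand of the gene, with matches of an E2F site (TTTGGCGC, TTTCGCGC, TTTCCCGC or TTTGCCGC), a CHR element (TTTGAA) or a CCAAT box (CCAAT) on either strand in capitals. The first of 3 promoters listed for CHEK1 is at chr11:125625974-125626223 (plus strand), that of CLSPN at chr1:35769979-35770228 and that of TOPBP1 at chr3:133661942-133662191 (both minus strand).
CHEK1: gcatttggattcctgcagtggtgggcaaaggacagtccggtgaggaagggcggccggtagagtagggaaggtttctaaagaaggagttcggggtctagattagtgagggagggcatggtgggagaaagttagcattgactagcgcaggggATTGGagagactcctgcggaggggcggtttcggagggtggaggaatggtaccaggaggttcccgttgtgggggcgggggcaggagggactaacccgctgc
CLSPN: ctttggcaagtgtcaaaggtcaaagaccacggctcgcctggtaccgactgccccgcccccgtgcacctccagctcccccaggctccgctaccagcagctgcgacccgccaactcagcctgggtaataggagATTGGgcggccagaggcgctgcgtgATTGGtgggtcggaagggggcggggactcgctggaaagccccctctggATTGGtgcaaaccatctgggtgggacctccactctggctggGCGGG
TOPBP1: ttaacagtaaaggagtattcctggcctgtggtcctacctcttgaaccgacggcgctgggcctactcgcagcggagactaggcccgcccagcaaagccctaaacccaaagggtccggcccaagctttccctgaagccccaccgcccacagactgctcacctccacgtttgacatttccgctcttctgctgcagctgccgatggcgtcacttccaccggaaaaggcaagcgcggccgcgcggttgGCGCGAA
In the window of 250 bases before to 50 after the start, CLSPN held TTTCCCGC at position -5 and TOPBP1 held TTTCGCGC at position -7, both read on the complementary strand and running past the start, so that the capitals show only their first letters. An E2F match was found in 3.31% of 35116 promoters in the table and in no other promoter of the members. CLSPN also held the complement of CCAAT at -119, -94 and -46, and CHEK1 at -100, a motif of 34.6% of all promoters. CHR, found in 15.2%, occurred in 1 promoter of ATM. These are matches of letters, and binding was not measured.

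WEE1, the inhibitory kinase of CDK1, fell in 5 lines and rose in none. In MOLM13 it went from 49.0, 44.6 and 44.2 CPM to 25.8, 21.4 and 22.2 CPM (-0.99 ± 0.09, adjusted p = 1.36e-05). In MV411 it went from 77.5, 77.3 and 73.2 CPM to 46.0, 43.2 and 44.03 CPM (-0.78 ± 0.06, adjusted p = 6.3e-10). F36P fell from the highest untreated level, 139, 140 and 132 CPM, to 92.4, 80.5 and 84.9 CPM (-0.67 ± 0.11, adjusted p = 0.000393). The 3 lines show treated libraries well below the untreated ones. THP1 (-0.55 ± 0.13) and OCIAML3 (-0.47 ± 0.08) fell as well. The log2 fold change in KASUMI1 was -0.01 ± 0.08 and in NOMO1 0.15 ± 0.10, neither passing the test.

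ATR, the apical kinase for single-stranded DNA, fell in 5 lines and rose in none. In MV411 it went from 89.4, 87.1 and 87.8 CPM to 61.6, 52.8 and 53.4 CPM (-0.66 ± 0.07, adjusted p = 2.22e-08). In MOLM13 it went from 66.4, 63.6 and 68.8 CPM to 53.1, 28.0 and 35.6 CPM (-0.77 ± 0.18, adjusted p = 0.00458), and without etoposide library 1 the log2 fold change was -1.04. NB4 fell by 0.38 on the log2 scale (adjusted p = 0.00386). The calls in F36P (-0.75 ± 0.28, adjusted p = 0.0424) and KASUMI1 (-0.57 ± 0.22, adjusted p = 0.0456) had overlapping libraries. In F36P the adjusted p rose to between 0.051 and 0.14 without untreated library 2 or any etoposide library. In KASUMI1 it rose to between 0.064 and 0.14 without untreated or etoposide library 1 or 2. F36P without untreated library 1 had a log2 fold change of -1.04. THP1 (-0.42, adjusted p = 0.0651) did not pass, but it did without etoposide library 1 (-0.55, adjusted p = 0.031) and without a filter on low counts (-0.42, adjusted p = 0.023).

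ATM, the apical kinase for double-strand breaks, fell in 3 lines and passed higher in none. Its largest decrease was in THP1, from 132, 114 and 120 CPM to 76.6, 50.2 and 80.8 CPM (-0.82 ± 0.16, adjusted p = 0.000645). The changes in HL60 (-0.37 ± 0.10, adjusted p = 0.0115) and MV411 (-0.21 ± 0.07, adjusted p = 0.0108) were smaller. The HL60 call was lost without untreated library 1 (-0.32, adjusted p = 0.065), and the MV411 call without untreated library 1 (-0.14, adjusted p = 0.099) or etoposide library 2 (-0.16, adjusted p = 0.071). In NB4 the change of -0.21 passed with the replicate block (adjusted p = 0.012) and not without it (adjusted p = 0.0937), and it was -0.33 without untreated library 2 (adjusted p = 0.0072). KASUMI1 had the highest value, 0.31 (adjusted p = 0.207), with overlapping libraries. It passed as higher without etoposide library 2 (0.52, adjusted p = 0.0071) and without a filter on low counts (0.26, adjusted p = 0.045).

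CHEK2, the effector kinase of ATM, fell in F36P, NB4 and MOLM13 and passed higher in none. In F36P, the line with the highest level, it went from 116, 122 and 113 CPM to 89.7, 79.5 and 84.4 CPM (-0.47 ± 0.11, adjusted p = 0.00343). That call was lost with library size alone (-0.22, adjusted p = 0.120). The change in NB4 was -0.35 ± 0.11 (adjusted p = 0.0107) and was lost without etoposide library 2 (-0.28, adjusted p = 0.063). The MOLM13 change of -0.20 ± 0.08 (adjusted p = 0.0494) was lost without any 1 library other than etoposide library 1 (adjusted p = 0.067 to 0.196) and in DESeq2 (adjusted p = 0.092). HL60 passed as lower without etoposide library 2 (-0.39, adjusted p = 0.014), as did KASUMI1 without etoposide library 2 (-0.21, adjusted p = 0.047). With library size alone CHEK2 passed as higher in MV411 (0.18, adjusted p = 0.014), where it had 0.05 with TMM scaling.

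RAD9A (ENSG00000172613.7, chr11:67317871-67398410, plus strand), the clamp subunit that binds TOPBP1, rose in KASUMI1 and MONOMAC6 and fell in MOLM13. In KASUMI1 it went from 29.5, 33.9 and 34.3 CPM to 39.2, 51.1 and 47.9 CPM (0.50 ± 0.12, adjusted p = 0.00449), and in MOLM13 from 30.3, 31.7 and 27.2 CPM to 20.9, 23.6 and 22.8 CPM (-0.41 ± 0.09, adjusted p = 0.00331). The MONOMAC6 change was 0.22 ± 0.07 (adjusted p = 0.0198). It was lost without untreated library 1 or etoposide library 2 or 3 (0.16 to 0.20, adjusted p = 0.052 to 0.077). NB4 (0.19) passed as higher without etoposide library 1 (0.30, adjusted p = 0.022), and THP1 (-0.21) as lower without etoposide library 2 (-0.37, adjusted p = 0.010). F36P, which did not pass, was higher with library size alone (0.55, adjusted p = 0.0058). It was also higher with a mean of at least 5 CPM (0.46, adjusted p = 0.021) and in 1 fit of 60 libraries (0.35, adjusted p = 0.0061).

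By line, MOLM13 stood out in these counts: 7 of 8 members fell, with a median log2 fold change of -0.84, while 28.1% of all genes tested fell and 28.1% rose. ATM was the exception, at -0.12 ± 0.16, and without etoposide library 1 it passed as lower too (-0.32, adjusted p = 0.018). Without etoposide library 1 of MOLM13, TOPBP1 (-1.03), ATR (-1.04) and WEE1 (-1.05) also fell by more than 2-fold. In KASUMI1 4 members rose (31.5% of all genes did) and ATR fell (28.6%), with a median of 0.33. In MONOMAC6 4 rose and none fell (31.8% and 30.5% of all genes; 1 was lower at an unadjusted p below 0.05 and 0 in DESeq2), in NOMO1 3 rose and none fell (28.8% and 23.9%; 0 lower by either), and in HL60 3 rose and ATM fell (17.5% and 15%). MV411 had 5 members that fell (30.4% of all genes) and 1 that rose (33.5%). In F36P 3 fell and 1 rose (25% and 35.0%), in NB4 2 fell and 1 rose (28.7% and 31.0%), in OCIAML3 3 fell (17.7%) and in THP1 2 fell (16.0%). In OCIAML3 and THP1 no member rose, or had an unadjusted p below 0.05 upwards, or passed upwards in DESeq2, against 22.4% and 16.1% of all genes. OCIAML2 had no member that passed (unadjusted p below 0.05 in 0 of 8, and 0 passed in DESeq2), and 0.0221% of its genes did. The only 3 genes that passed there were CDKN1A, MDM2 and ZMAT3, with log2 fold changes of 0.73, 0.47 and 0.53, and DESeq2 called 16.

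Averaged over 10 lines, 3 members were lower and none higher. Limma on 1 log2 fold change per line called ATR lower by a mean of -0.34 ± 0.09 (SE, 9 of 10 lines lower, adjusted p = 0.0083). WEE1 had -0.34 ± 0.10 (8 of 10 lines lower, adjusted p = 0.0199) and CHEK2 had -0.16 ± 0.06 (9 of 10 lines lower, adjusted p = 0.0393). Over all 14080 genes 17.8% were called lower and 24.5% higher, so 3 of 8 lower lies above and 0 of 8 higher below these shares. At an unadjusted p below 0.05, 0 members were higher as well. CLSPN had the largest positive mean, 0.36 ± 0.19 (8 of 10 lines higher, adjusted p = 0.147), and without MOLM13 it was 0.52 and passed (adjusted p = 0.017). CHEK1 averaged 0.03 ± 0.17 with an SD of 0.63 between lines, since its rises and falls nearly cancelled. TOPBP1 (0.09 ± 0.14), RAD9A (0.10 ± 0.09) and ATM (-0.12 ± 0.09) did not pass. The CHEK2 call was lost without F36P, HL60, KASUMI1, MONOMAC6, NB4, NOMO1 or THP1 (-0.13 to -0.17, adjusted p = 0.053 to 0.11), and with library size alone ATR was the only member still called.

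**Figure D4:**
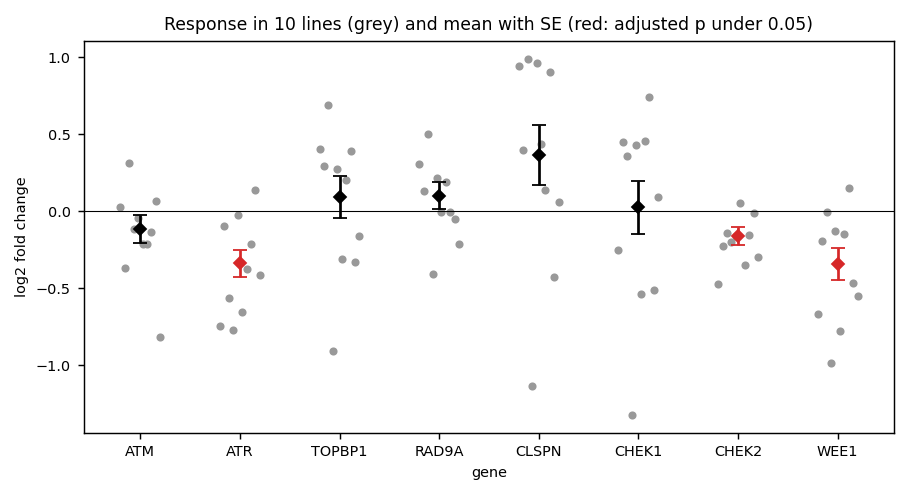
Log2 fold change of 8 checkpoint genes in each of 10 lines (grey points) with the mean over lines and its SE (diamond and bar, red at an adjusted p below 0.05). ATR, WEE1 and CHEK2 have red means below 0, and the points of CHEK1 and CLSPN reach farther on both sides of 0 than those of CHEK2.

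The response differed between lines for 6 of 8 members by the interaction of line and treatment over 60 libraries, and for 74.5% of all genes tested. CHEK1 had the largest F value at 31.2 (adjusted p = 2.08e-16), followed by CLSPN at 19.7, WEE1 at 16.4, TOPBP1 at 6.63, RAD9A at 5.16 and ATM at 2.29 (adjusted p = 0.0412). ATM lost this call without replicate 1 of every group (adjusted p = 0.121) or without replicate 2 (adjusted p = 0.145). CHEK2 (adjusted p = 0.053) and ATR (adjusted p = 0.104) did not pass, which does not show that their responses were alike. CHEK2 passed without replicate 2 (adjusted p = 0.0326), and ATR passed without replicate 1 (adjusted p = 0.0312) or replicate 3 (adjusted p = 0.0172). Each line was then set against the mean of the other 9. KASUMI1 differed for 6 of 8 members (30.0% of all genes did) and MOLM13 for 5 (25%). The count was 3 in F36P (33.5%) and NOMO1 (23.8%), 2 in MONOMAC6 (15.9%), MV411 (13.2%), NB4 (19.5%) and OCIAML3 (16.5%), and 1 in HL60 (17.1%) and THP1 (25.3%).

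The other genes of the pathway were counted by role in the same way. Among 11 damage sensors and ATR activators, 24 of 110 gene and line pairs rose and 32 fell (21.8% and 29.1%), near the 27.7% and 24.4% of all genes. Over 10 lines RPA2, a subunit of the single-strand binding protein, was higher (mean 0.28 ± 0.10, adjusted p = 0.0351). NBN and RAD50 of the break-binding MRN complex (-0.28 ± 0.08 and -0.24 ± 0.08) and RAD17, the loader of the RAD9A clamp (-0.26 ± 0.08), were lower. Of 80 pairs of 8 mediators 29 rose and 18 fell (36.2% and 22.5%). TP53BP1, which binds chromatin at breaks, was higher (0.36 ± 0.08, adjusted p = 0.0027) and MDC1, which binds phosphorylated H2AX, was lower (-0.35 ± 0.09, adjusted p = 0.0108). BRCA1 had a mean of 0.42 ± 0.18 that did not pass (adjusted p = 0.0802). None of the 3 genes that stabilise these kinases, TELO2, TTI1 and TTI2, passed over lines (means from -0.10 to 0.10), and in single lines 4 of 30 pairs rose and 7 fell (13.3% and 23.3%).

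Among 9 targets and antagonists of the kinases, 37 of 90 pairs rose and 17 fell (41.1% and 18.9%), with a median of the mean responses of 0.32 against 0.07 for all genes. CDC25C (0.43 ± 0.14), a phosphatase that the checkpoint kinases inhibit, CDK2 (0.40 ± 0.12) and PPM1D (0.32 ± 0.11), the phosphatase that reverses checkpoint phosphorylation, were higher. CCNB1, cyclin B1, was lower in 10 of 10 lines (-0.56 ± 0.11, adjusted p = 0.0016). PKMYT1, the membrane-bound relative of WEE1, had 0.43 ± 0.18 and did not pass (adjusted p = 0.0778).

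RNA of genes expressed by cell cycle phase also moved in different directions between lines. The median log2 fold change of 20 S phase genes was lowest in MOLM13 (-1.003, 20 of 20 fell) and highest in KASUMI1 (0.44, 13 of 20 rose and 2 fell), the ends at which the members' median also lay. NOMO1 and MONOMAC6 each had 15 of 20 that rose and OCIAML3 14 of 20 that fell. Over 10 lines CCNE2, cyclin E2, was higher (1.04 ± 0.31, adjusted p = 0.0184), whereas RRM2 (0.50 ± 0.21) and CDC6 (0.44 ± 0.20) did not pass. Of 140 pairs of G2 and M phase genes 73 fell and 19 rose (52.1% and 13.6%), with CDC20 (-0.93 ± 0.15), CENPF (-0.85 ± 0.18) and PLK1 (-0.75 ± 0.12) the lowest over lines. The p53 targets rose in 68 of 98 pairs and fell in 3 (69.4% and 3.06%), with the highest median in OCIAML3 (2.10).

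Over the 10 lines the log2 fold change of CHEK1 had a Pearson r of 0.93 with the S phase median (0.84 over 9 lines without MOLM13) and of 0.92 with that of WEE1. The r with the S phase median was 0.87 for TOPBP1 and 0.85 for CLSPN (0.70 and 0.65 without MOLM13). It was 0.66 for RAD9A (0.34 without MOLM13), 0.36 for ATR (0.01 without MOLM13) and -0.06 for both ATM and CHEK2. WEE1 had an r of 0.87 with the G2 and M phase median (0.80 without MOLM13) and 0.81 with the S phase median (0.71). The r with the G2 and M phase median was 0.82 for CHEK1, 0.77 for TOPBP1 and 0.68 for CLSPN. Without MOLM13 these were 0.63, 0.55 and 0.34. The S phase median and the G2 and M phase median had 0.84 with each other (0.64), so these values do not separate the phases. CLSPN and TOPBP1 had 0.90 with each other (0.79). CHEK1 had an r of -0.05 with CDKN1A, -0.65 with MDM2 and -0.64 with the median of the p53 targets. Without MOLM13 these were -0.18, -0.54 and -0.49. Over the other members the r with MDM2 ran from -0.72 (TOPBP1) to 0.68 (CHEK2). These coefficients describe 10 points and have no p, and every point takes both of its values from the same 6 libraries. The share of cells in each phase was not measured, so fewer cells in a phase and less RNA per cell cannot be told apart. The part of the cell cycle genes in the members' changes was not tested.

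**Figure D5:**
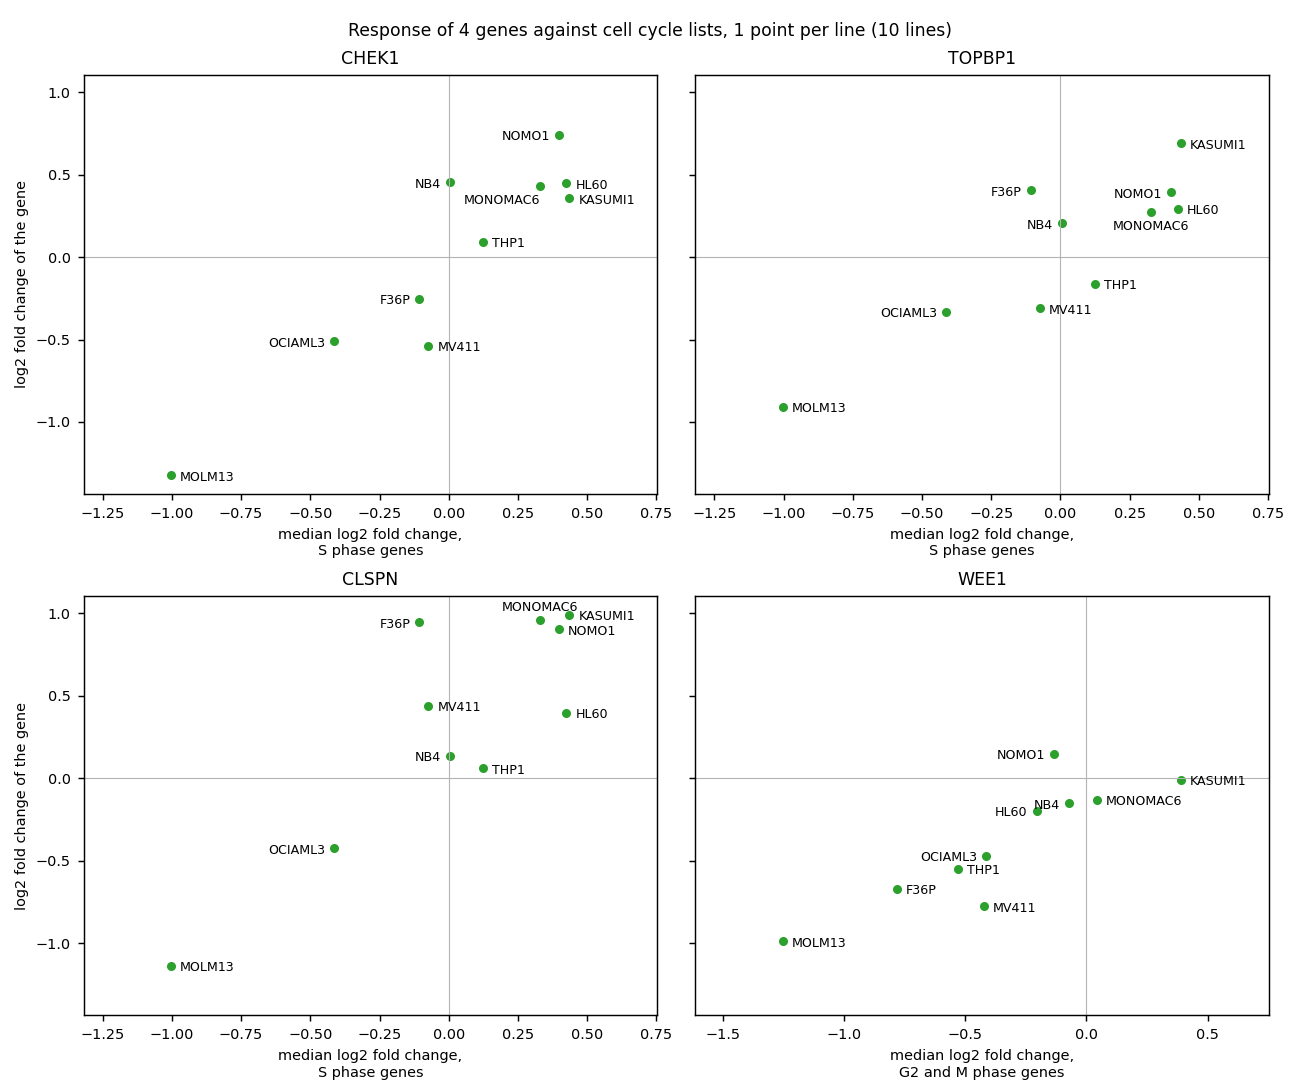
Log2 fold change of CHEK1, TOPBP1 and CLSPN against the median log2 fold change of 20 S phase genes, and of WEE1 against that of 14 G2 and M phase genes, 1 point per line (10 lines). MOLM13 is the lowest point in each panel, and the other 9 lines also tend to rise from left to right.

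The genes whose untreated level followed a member most closely were found over the 11 lines among 13669 genes, on the mean log2 CPM of each line. For ATM these were SLC1A4, ALKBH8 and SMG1 (Pearson r from 0.94 to 0.95), and for ATR CCDC191, JMJD8 and RFC3 (all 0.93). For CHEK1 they were PIGA, EIF3J and HAUS2 (0.86 to 0.93), and for CHEK2 PHF5A, UFD1 and AP4B1 (0.88 to 0.91). WEE1 was followed by FECH, CAPN5 and FARP1 (0.88 to 0.95), RAD9A by CD58, HERC2P2 and RCN1P2 (0.86 to 0.91), CLSPN by PIK3AP1, IL12RB1 and NOD2 (all 0.95) and TOPBP1 by HIRIP3, C1orf162 and SASH3 (0.88 to 0.92). No member was among the closest genes of another, and the highest r between members was 0.67, for ATM and TOPBP1. The named genes have the highest r of 13669 on only 11 points, so high values arise from the picking itself. All points share 1 normalization, no p was computed, and the genes are not read as partners of the members.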

How the data were processed

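RNA of 11 AML cell lines was measured in 66 libraries made with a stranded mRNA kit. According to the methods and the submitters' processing notes, reads were checked with FastQC 0.11.5, mapped to GRCh38.p7 and counted per gene by STAR 2.5.3a against gencode release 25, and the authors used edgeR 3.20.1. The authors deposited unnormalized counts of reads per gene, 1 column per library, and the column is strand-specific, since 378 of 480 genes embedded in an opposite-strand exon had counts above 0. The etoposide libraries of OCIAML2, discarded by the study, were kept apart.

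Of 58037 identifiers, 45 pseudoautosomal copies on chromosome Y with 0 reads were left out, and 56948 of the other 57992 matched gencode release 44, the source of names and positions. Each line was fitted in R 4.3.3 with edgeR 4.0.16 (filterByExpr with a minimum count of 10 and total of 15, TMM, quasi-likelihood test, Benjamini-Hochberg over all genes). Genes pass at an adjusted p below 0.05, and the fold minimum is 2, as in the study. The mean response used limma 3.58.1 on 1 log2 fold change per line (prior count 2, mean of at least 1 CPM). Interaction and untreated levels used edgeR F tests over 60 and 33 libraries. A difference tested over lines is scaled over all their libraries, so its fold changes differ slightly from those within a line. DESeq2 1.42.0 was an alternative, beside other filters, scalings, tests and libraries left out. Intervals from replicates cover the 3 samples of a group, described as biological replicates without further detail. Figures and summaries used Python 3.11.15, numpy 2.4.6, pandas 2.3.3 and matplotlib 3.10.9.

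The members and lists were chosen with earlier results of these data known. Named genes are the members, CDKN1A and MDM2, the 3 genes of each list with the largest mean change and the 3 genes most alike to each member; RAD50, CDK2, PPM1D and ZMAT3 were named after their values were seen. The labels and methods do not state that replicate numbers pair the libraries. Deviations from the group mean were correlated between libraries with a common number, with a limit of 0.1. NB4 alone lay above it throughout (0.152 to 0.265, 3 pairs). The lowest values of MOLM13 (0.089 to 0.231) and OCIAML2 (0.082 to 0.158) just missed it. In F36P, KASUMI1, NOMO1, OCIAML3 and THP1 the lowest value was negative. On counts simulated from MOLM13 with 376 of 13403 genes changed 2-fold, the quasi-likelihood test recovered 368 with 8 false calls, and the interaction test recovered 160 of 200 planted 2-fold differences with 5 false calls. The planted changes were all upwards, in well-counted genes, and the spread was set the same for every gene. These rates therefore do not carry over to changes below 2-fold.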

Additional observations from a re-analysis of the deposited data

Results flagged for a closer look

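The response of a line was compared with the mean response of the other 9 lines in 1 edgeR fit of 60 libraries, and 27 of 80 differences passed at an adjusted p below 0.05. Over all genes tested, the share that passed in a line ran from 13.2% (MV411) to 33.5% (F36P). Differences are on the log2 scale, positive where the log2 fold change of the line lay above the mean of the other 9. A positive difference need not be a rise. CHEK1 was flagged in the most lines, 8: its difference was -1.42 in MOLM13, -0.60 in OCIAML3 and -0.57 in MV411, and 0.77 in NOMO1, 0.54 in NB4, 0.51 in HL60, 0.46 in MONOMAC6 and 0.43 in KASUMI1. For CLSPN the difference was -1.59 in MOLM13, the largest of any member, and -0.88 in OCIAML3, against 0.76 in KASUMI1, 0.72 in F36P, 0.67 in MONOMAC6 and 0.58 in NOMO1. For WEE1 it was -0.64 in MOLM13, -0.42 in MV411 and -0.31 in F36P, against 0.53 in NOMO1, 0.43 in KASUMI1 and 0.27 in NB4. WEE1 rose in no line, and its own change in NOMO1, KASUMI1 and NB4 did not pass the test.

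TOPBP1 differed in MOLM13 (-1.04) and KASUMI1 (0.73), and RAD9A in the same lines (-0.49 and 0.50). ATM differed in THP1 (-0.72) and KASUMI1 (0.53), although in KASUMI1 its own change did not pass the test (adjusted p = 0.207). CHEK2 differed in F36P (-0.29). ATR differed in no line. By Dixon's test over 10 lines (critical value 0.466), no line was an outlier in the response of any of the 8 members. With so few points this test can miss a line, above all where another lies on the same side. It therefore does not show that MOLM13 responded like the other lines.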

How the results depend on the processing

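Of 1224 alternative values for a member in a line, 1128 stayed on the same side of the test's threshold. Another 65 lost a call and 31 gained one, and none passed in the opposite direction. These values include OCIAML2, where no member passed, which raises the share that stayed. The count of rises over 2-fold, 0 as reported, was 2 with a mean of at least 5 CPM, 3 with library size alone, 2 in 1 fit of 60 libraries and 0 to 2 with 1 replicate left out; CLSPN in F36P, KASUMI1 or MONOMAC6 was the member in each. Falls over 2-fold, 2 as reported, ranged from 2 to 5 with 1 replicate left out. Members lower over 10 lines, 3 as reported, numbered 1 with library size alone, and 1 member was higher without MOLM13. The number of members that differed in untreated level was 8 under all 6 alternatives run. With the replicate number as a replicate block, 17 pairs rose and 23 fell, and 5 members differed between lines. Only in NB4 did all libraries with a common number exceed the correlation limit of 0.1, and the labels state no pairing. In OCIAML2, which just missed that limit, the block moved the genes that passed from 3 to 20. Without a filter on low counts the interaction test called 7 members, among them ATR (adjusted p = 5.48e-10); the cause was not tested. The 8 members had at least 314 reads in every library, whereas ATRIP had at most 18 and could not be read.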
